A study of Mus musculus with 4 samples.

Results

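Histones of the clustered Hist genes are the proteins around which newly copied DNA is wrapped, and 9 of the 28585 genes listed for these libraries carry a name that starts with Hist1h, Hist2h, Hist3h or Hist4h, which is how they were chosen. They comprise 4 H2A genes (Hist1h2al, Hist1h2an, Hist1h2ao and Hist1h2ap), 3 H2B genes (Hist1h2bp, Hist1h2bq and Hist1h2br) and 2 H4 genes (Hist1h4m and Hist1h4n). No H1 or H3 gene is listed under such a name. The names are not the whole family: by gene identifier and GENCODE M21 name the same libraries hold 65 clustered histone genes, and the other 56 are listed under newer symbols such as H1f2 for Hist1h1c and H2bc4 for Hist1h2bc. These 56 are given below as the surroundings of the 9, and 5 more clustered histone genes of GENCODE M21 were not analysed here.

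The libraries are bulk RNA sequencing of PMN-MDSCs, neutrophil-like suppressor cells, sorted from the spleen of C57BL/6J-background pups on postnatal day 7, with 300000 cells in each. In 2 libraries the genotype is Dhps cko, in which floxed Dhps (fl/fl) is cut by a Cre recombinase under the Lysm promoter, which is active in myeloid cells generally and not in PMN-MDSCs alone. The other 2 are Dhps flox, fl/fl littermates, so both genotypes carry the floxed allele. Dhps encodes deoxyhypusine synthase, the first enzyme in the formation of hypusine on the translation factor eIF5A. The labels do not say whether replicates came from separate pups, so the p-values measure only the spread between these libraries, and with 2 against 2 an exact two-sided permutation test of a single gene cannot give a p below 0.333.

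Clustered histone genes are transcribed mainly in S phase, and most have no introns. Their mRNAs usually end in a short stem-loop and not in a poly(A) tail, and the stem-loop binding protein SLBP holds that end during processing, export and translation. H2A and H2B pair into dimers, H3 and H4 form the tetramer at the centre of the nucleosome, and H1 binds the DNA that links nucleosomes. Replacement variants such as H3.3 and H2A.Z are coded outside the clusters, are made throughout the cell cycle and have polyadenylated mRNAs. Neutrophil precursors divide before they mature, and mature neutrophils do not divide. A level in such bulk RNA does not separate fewer cells of a kind from less RNA per cell.

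Of the 9 genes, 8 lie within 50.7 kb on chromosome 13 (GRCm38, chr13:21786826-21837530), and in them the same 3 genes occur as mirrored copies. Hist1h2bq (chr13:21806612-21810197, minus strand), Hist1h2ao and Hist1h4m stand on one side, and Hist1h4n, Hist1h2ap and Hist1h2br stand in reverse order and orientation on the other. Hist1h2an and Hist1h2bp form a further H2A and H2B couple beside them. Hist1h2al (chr13:51202727-51203065) lies apart from the others and is annotated as a processed pseudogene. The coding sequences of Hist1h2bq and Hist1h2br are identical over all 381 bases, those of Hist1h2ao and Hist1h2ap over all 393, and those of Hist1h4m and Hist1h4n over all 312. Hist1h2an differs from Hist1h2ao at 5 of 393 bases, and Hist1h2bp differs from Hist1h2bq at 6 of 381. Reads within such stretches cannot be told apart, and how multiply aligned reads were assigned is not given in the sources used here, so each level below is uncertain as the level of a single copy.

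**Figure D1:**
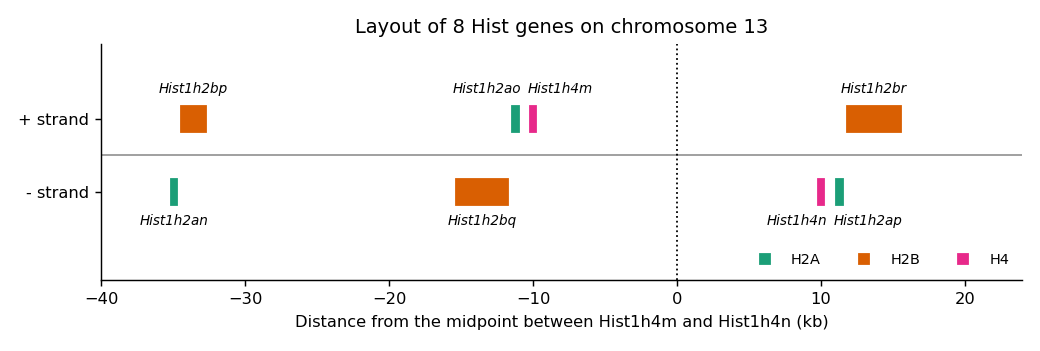
Positions of 8 Hist genes along chromosome 13, in kb from the midpoint between Hist1h4m and Hist1h4n (x axis), with genes of the plus strand above and genes of the minus strand below the line and boxes drawn to the extent of each annotated gene. The set of an H2B, an H2A and an H4 gene on the left of the dotted midpoint recurs on the right as its mirror image, and Hist1h2an and Hist1h2bp stand further left.

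How much of a transcript is shared was measured as the share of its 100-base stretches that also occur in a transcript of another gene. It was 94.8% for Hist1h2bq, 92.7% for Hist1h2ao, 92.2% for Hist1h2ap, 88.1% for Hist1h4m, 86.4% for Hist1h2br, 83.3% for Hist1h2an and 80.7% for Hist1h4n. Hist1h2bp was the most separable of the 8 at 31.1%, and Hist1h2al had 19.2%. At least 80% was shared by 7 of these 9 genes and by 6 of the 56 clustered histone genes under newer symbols, whose median was 32.0%.

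The 3′ ends are shown because the annotated transcripts differ there. A stem of 6 base pairs around a loop of 4 bases was found past the stop codon in 5 of the 9 genes, in the 2 forms below, in which capitals mark the paired bases of the stem.
Hist1h2ao, Hist1h2ap and Hist1h2bp: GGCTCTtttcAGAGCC
Hist1h4m and Hist1h4n: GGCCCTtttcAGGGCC
It starts 27 bases past the stop codon in Hist1h2bp, 33 bases past it in both H4 genes and 38 bases past it in Hist1h2ao and Hist1h2ap. In Hist1h2ap and Hist1h4m the annotated transcript ends 3 bases after the stem-loop. Hist1h2bq and Hist1h2br have transcripts of up to 3 exons, which run up to 1608 and 1803 bases past the stop codon. No stem-loop was found in them. Their shortest transcripts are 381 bases, the length of the coding sequence. Only annotated transcripts were searched, so bases spliced out or not annotated were not read. Hist1h2bp, in which a stem-loop was found, also has transcripts of up to 2 exons. The models of Hist1h2an and Hist1h2al hold no base past the stop codon, so the search could not find a stem-loop there.

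The promoters are shown because the mirrored copies, whose levels are compared below, share them in whole or in part. RefSeq promoters (250 bases before to 50 after the start, GRCm38.p6) were found for 8 of the 9 genes, all but Hist1h2al. The windows of Hist1h2bq and Hist1h2br are identical at 300 of 300 bases, and those of Hist1h4m and Hist1h4n at 298 of 301 aligned positions. Those of Hist1h2ao and Hist1h2ap, whose starts are annotated at different places, are identical at 200 of 400 aligned positions, which are the 200 bases that both windows cover. The windows of Hist1h2bq and Hist1h2ao overlap by 267 bases, since these genes are transcribed away from each other, and those of Hist1h2bp and Hist1h2an overlap likewise. In the 3 windows below, capitals mark CCAAT or TATAAA on either strand (ATTGG and TTTATA on the strand printed), which do not overlap one another.
Hist1h2bq (chr13:21810150-21810449, minus strand): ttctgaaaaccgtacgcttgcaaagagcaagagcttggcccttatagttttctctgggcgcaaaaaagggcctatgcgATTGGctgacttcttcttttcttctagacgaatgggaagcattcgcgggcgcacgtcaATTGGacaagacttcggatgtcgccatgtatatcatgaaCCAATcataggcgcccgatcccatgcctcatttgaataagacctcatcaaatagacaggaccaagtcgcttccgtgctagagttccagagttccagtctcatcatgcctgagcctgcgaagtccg
Hist1h2bp (chr13:21787238-21787537, plus strand): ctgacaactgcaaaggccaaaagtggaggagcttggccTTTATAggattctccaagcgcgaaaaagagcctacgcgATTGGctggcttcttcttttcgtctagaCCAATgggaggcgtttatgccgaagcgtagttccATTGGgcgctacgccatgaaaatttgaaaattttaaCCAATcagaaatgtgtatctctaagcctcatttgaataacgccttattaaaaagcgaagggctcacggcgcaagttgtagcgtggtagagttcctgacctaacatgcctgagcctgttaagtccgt
Hist1h4m (chr13:21811496-21811795, plus strand): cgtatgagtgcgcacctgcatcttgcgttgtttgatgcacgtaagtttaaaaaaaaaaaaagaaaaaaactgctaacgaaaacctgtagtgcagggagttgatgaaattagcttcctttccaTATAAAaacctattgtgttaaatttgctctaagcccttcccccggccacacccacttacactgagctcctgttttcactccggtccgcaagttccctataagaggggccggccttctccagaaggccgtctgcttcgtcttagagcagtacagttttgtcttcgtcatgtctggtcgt
CCAAT, the letters bound by the factor NF-Y, occurred 3 times in the Hist1h2bq window, 4 times in that of Hist1h2bp and not in that of Hist1h4m. It was present in 6 of the 8 windows, in all 32 windows of clustered H2A and H2B genes, in 84.5% of the 58 windows of clustered histone genes and in 37.4% of all 32851 promoters. TATAAA was present in 4 of the 8, in 58.6% of the clustered histone windows and in 13.6% of all. The octamer ATTTGCAT, known from H2B promoters, was in none of the 8, in 20.7% of the clustered histone windows and in 1.74% of all. A match is a run of letters and was not tested as a binding site.

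All 9 genes were at low levels in these data, at or below 1.49 FPKM (fragments scaled to transcript length and to all mapped fragments) in every library. Clustered histone mRNAs usually lack a poly(A) tail and library selection is not given, so levels in the cells may differ, which was not tested. The median over the 17953 genes tested was 1.83 FPKM as a mean of the 4 libraries. Hist1h2bq and Hist1h2br, which code for the same H2B, were the highest, with means of 1.27 and 1.26 FPKM, and these do not differ beyond the spread between libraries. Next came Hist1h2ap at 0.605, Hist1h4n at 0.582 and Hist1h2ao at 0.485 FPKM, then Hist1h4m at 0.30, Hist1h2bp at 0.285 and Hist1h2an at 0.173 FPKM. Hist1h4n and Hist1h2bp varied so widely that they do not separate from their neighbours in this order. Hist1h2al was listed at 0 in all 4 libraries.

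Few fragments lie behind most of these levels. From the steps between low FPKM values the libraries held about 30000000 to 32000000 fragments. The steps did not give back whole reads: between 39.8% and 44.1% of low values lay within 0.15 of a whole step. A depth set beforehand would give 30% by chance, but this depth was chosen to place the same values near whole steps. The excess over 30% is therefore no measure of its accuracy. On this rough scale Hist1h2ap had 6.4 to 11.1 fragments per library, Hist1h2ao 5.6 to 8.7, Hist1h4n 1.9 to 17.4, Hist1h4m 1.5 to 6.1 and Hist1h2an 1.5 to 3.2. The other 3 tested Hist genes have several transcripts and were given no such estimate.

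The question for the genotypes was whether histone mRNA levels differed between PMN-MDSCs of Dhps cko and Dhps flox pups. Of the 9 genes, 8 reached a mean over the libraries of 0.1 FPKM and were tested, and none passed an adjusted p of 0.05 (limma, Benjamini-Hochberg over all 17953 genes). The lowest adjusted p among them was 0.77, and none had an unadjusted p under 0.05, whereas 7.0% of all genes tested did. Over all genes, 0.00557% passed the adjusted threshold, which is 1 gene, Gm20716, named after its values were seen and listed at 5.60 and 5.75 FPKM in Dhps cko and at 0 in both Dhps flox libraries. In 3 of the 8 histone genes both Dhps cko libraries were above both Dhps flox libraries, and in 2 both were below. The background for such separation was 20.0% of genes tested for higher and 16.0% for lower. The log2 fold change was above 0 in 6 of the 8, with a median of 0.39, against 52.2% above 0 and a median of 0.01 over all genes tested. The median of the 8 was 0.092 without Dhps cko replicate 2 and 0.55 without Dhps cko replicate 1.

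The H2A genes were the members in which Dhps cko was higher without overlap. Hist1h2ap was at 0.72 FPKM in both Dhps cko libraries and at 0.54 and 0.44 FPKM in Dhps flox, a log2 fold change of 0.48 with an SE of 0.24 and an adjusted p of 0.77. Its mirrored copy Hist1h2ao was at 0.56 and 0.57 FPKM in Dhps cko and at 0.42 and 0.39 FPKM in Dhps flox, a log2 fold change of 0.40 with an SE of 0.25 and an adjusted p of 0.80. In both genes the Dhps cko libraries lie above the Dhps flox libraries, but as the copies share their coding sequence they are not separate evidence. Hist1h2an was at 0.16 and 0.26 FPKM in Dhps cko and at 0.12 and 0.15 FPKM in Dhps flox, a log2 fold change of 0.38 with an SE of 0.39 and an adjusted p of 0.87. The gap between its genotypes, from 0.15 to 0.16 FPKM, is less than 1 fragment, and its log2 fold change ranged from 0.15 without Dhps cko replicate 2 to 0.62 without Dhps cko replicate 1. When the 2 mirrored copies were summed before the fit, an alternative chosen after seeing the data, Hist1h2ao and Hist1h2ap together were at 1.28 and 1.29 FPKM in Dhps cko and at 0.96 and 0.83 FPKM in Dhps flox. The log2 fold change of this sum was 0.48 with an SE of 0.18, and its adjusted p was 0.70 at an unadjusted p of 0.0462.

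Among the H2B genes, Hist1h2bq and Hist1h2br had log2 fold changes below 0 and Hist1h2bp one above 0. Hist1h2bq was at 1.10 and 1.19 FPKM in Dhps cko and at 1.29 and 1.49 FPKM in Dhps flox, a log2 fold change of -0.26 with an SE of 0.17 and an adjusted p of 0.81. Hist1h2br was at 1.24 and 1.18 FPKM in Dhps cko and at 1.26 and 1.34 FPKM in Dhps flox, a log2 fold change of -0.10 with an SE of 0.16 and an adjusted p of 0.94. In both, the Dhps cko libraries lie below the Dhps flox libraries without overlap and by less than 0.4 FPKM. Without Dhps flox replicate 2 the log2 fold changes were -0.16 and -0.054. Summed as 1 gene they were at 2.34 and 2.37 FPKM in Dhps cko against 2.55 and 2.83 FPKM in Dhps flox, with an adjusted p of 0.81. Hist1h2bp was at 0.16 and 0.44 FPKM in Dhps cko and at 0.46 and 0.08 FPKM in Dhps flox. Here each genotype held a high and a low library, and the log2 fold change of 0.24 (SE 0.69, adjusted p of 0.97) became -0.29 without Dhps cko replicate 2 and -0.58 without Dhps flox replicate 2. Hist1h2bq and Hist1h2ao, whose promoter windows overlap, thus had log2 fold changes of opposite sign, neither past the test, and the difference between them was not tested.

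Of the H4 genes, Hist1h4n varied most within a genotype. It was at 0.32 and 1.27 FPKM in Dhps cko and at 0.14 and 0.60 FPKM in Dhps flox, a log2 fold change of 0.89 with an SE of 0.77 and an adjusted p of 0.84. Hist1h4m was at 0.30 and 0.48 FPKM in Dhps cko and at 0.12 and 0.30 FPKM in Dhps flox, a log2 fold change of 0.70 with an SE of 0.44 and an adjusted p of 0.80. In both genes replicate 2 was the higher library of each genotype and the genotypes overlap or meet. The log2 fold change of Hist1h4n ranged from 0.035 without Dhps cko replicate 2 to 1.74 without Dhps cko replicate 1. That of Hist1h4m ranged from 0.27 without Dhps flox replicate 1 to 1.13 without Dhps flox replicate 2. The copies summed were at 0.62 and 1.75 FPKM in Dhps cko and at 0.26 and 0.90 FPKM in Dhps flox, with an adjusted p of 0.82.

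**Figure D2:**
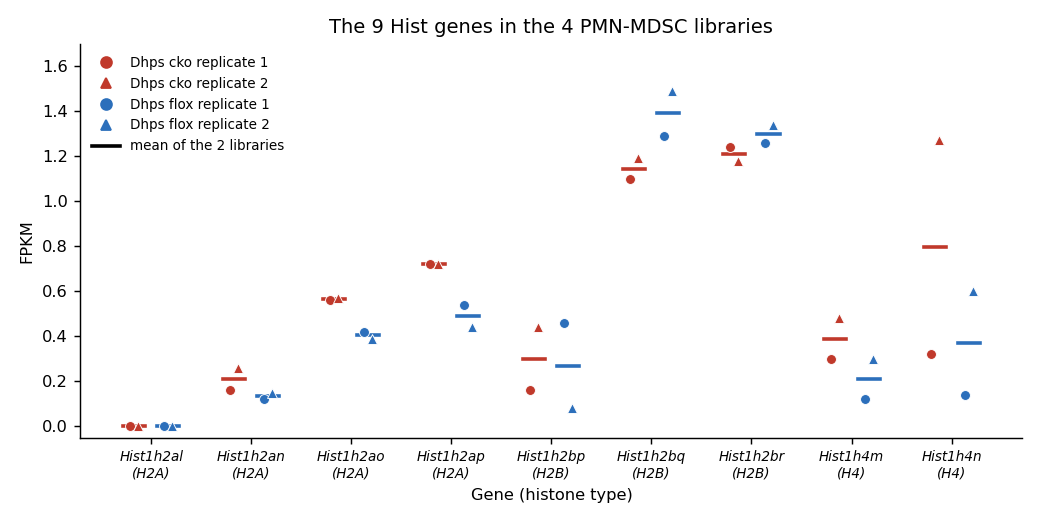
FPKM (y axis) of the 9 Hist genes (x axis, with histone type) in each of the 4 libraries, with circles for replicate 1, triangles for replicate 2 and a short line for the mean of each genotype. Hist1h2ao and Hist1h2ap lie higher in Dhps cko and Hist1h2bq and Hist1h2br lower, by less than 0.4 FPKM each, while the libraries of Hist1h4n run from 0.14 to 1.27 FPKM.

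By histone type, the 4 H2A genes summed to 1.44 and 1.55 FPKM in Dhps cko and to 1.08 and 0.98 FPKM in Dhps flox. The mean was 1.495 ± 0.0778 FPKM in Dhps cko (SD, n = 2) and 1.03 ± 0.0707 FPKM in Dhps flox (SD, n = 2). The 3 H2B genes summed to 2.50 and 2.81 FPKM in Dhps cko and to 3.01 and 2.91 FPKM in Dhps flox. The 2 H4 genes summed to 0.62 and 1.75 FPKM in Dhps cko and to 0.26 and 0.90 FPKM in Dhps flox. Dhps cko was thus at 145.1% of Dhps flox for H2A, 89.7% for H2B and 204.3% for H4, with genotypes overlapping only for H4. The H4 ratio of 2.04 depended on single libraries, being 1.07 without Dhps cko replicate 2 and 4.56 without Dhps flox replicate 2.

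The separation of H2A and the direction of H2B did not extend to the whole family. All 18 clustered H2A genes summed to 10.94 and 9.0 FPKM in Dhps cko and to 8.39 and 22.92 FPKM in Dhps flox, so the genotypes overlapped. The high Dhps flox library was replicate 2, in which H2ac18 alone was at 13.05 FPKM. That gene, an H2A gene whose transcript is wholly shared with others (all of its 100-base stretches), was at 1.78 and 0.53 FPKM in Dhps cko and at 0.19 FPKM in Dhps flox replicate 1. Its log2 fold change of -0.84 (adjusted p of 0.96) became 1.91 without Dhps flox replicate 2. Without H2ac18 the other 17 H2A genes summed to 9.16 and 8.47 FPKM in Dhps cko and to 8.20 and 9.87 FPKM in Dhps flox. All 18 H2B genes summed to 37.24 and 34.60 FPKM in Dhps cko and to 31.53 and 34.43 FPKM in Dhps flox, which is 108.9% of Dhps flox and on the other side of 100% from the 3 Hist1h2b genes. All 13 H4 genes summed to 7.22 and 8.77 FPKM in Dhps cko and to 7.08 and 6.28 FPKM in Dhps flox, 119.7% of Dhps flox without overlap. Without Hist1h4m and Hist1h4n, the other 11 H4 genes summed to 6.60 and 7.02 FPKM in Dhps cko and to 6.82 and 5.38 FPKM in Dhps flox. The genotypes then overlapped. The 11 H3 genes summed to 4.33 and 3.86 FPKM in Dhps cko and to 4.98 and 2.41 FPKM in Dhps flox. The 5 H1 genes summed to 57.42 and 60.91 FPKM in Dhps cko and to 70.75 and 62.61 FPKM in Dhps flox, 88.7% of Dhps flox.

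**Figure D3:**
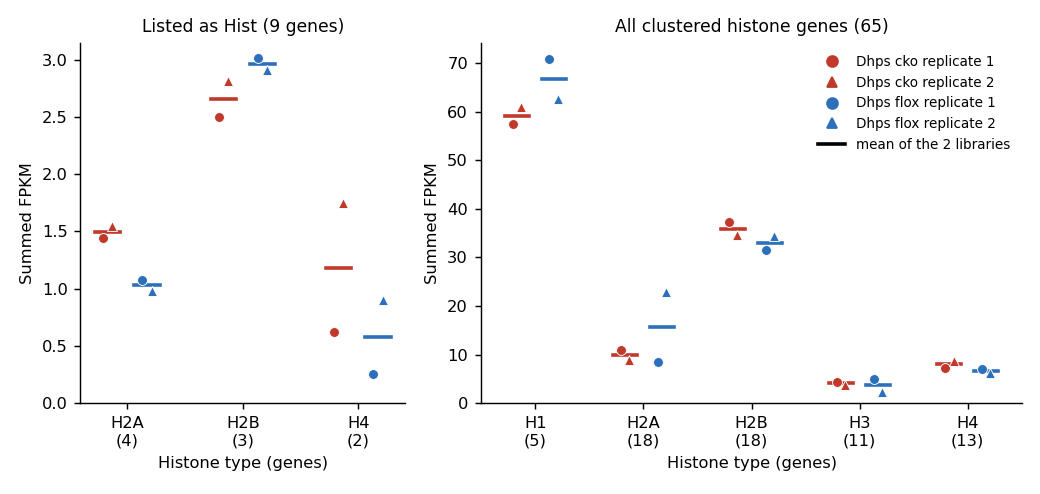
Summed FPKM (y axes, both from 0 and on different scales) of each histone type, with the number of genes in parentheses, for the 9 Hist genes and for all 65 clustered histone genes. Points are the 4 libraries and short lines the genotype means, and the separation of H2A on the left, 1.44 and 1.55 against 1.08 and 0.98 FPKM, is not present on the right, where Dhps flox replicate 2 stands at 22.92 FPKM.

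Of the 65 clustered histone genes 54 were tested, and none passed an adjusted p of 0.05, the lowest being 0.64. The log2 fold change was above 0 in 29 and below 0 in 25, with a median of 0.15. This median was 0.059 without Dhps cko replicate 1 and -0.063 without Dhps flox replicate 2, and -0.077 over the 9 genes whose mean reached 1 FPKM. In 10 genes Dhps cko was higher without overlap and in 11 lower, against the background of 20.0% and 16.0% of genes tested. An unadjusted p under 0.05 was found in 3 of the 54, 2 of them higher and 1 lower in Dhps cko, against 4.72% and 2.28% of all genes. These were H4c8, H3c10 and H4c3, all with some library at or below 0.24 FPKM. H4c8 was at 0.60 and 0.65 FPKM in Dhps cko and listed at 0 and 0.24 FPKM in Dhps flox, with an adjusted p of 0.64. H3c10 was at 0.46 and 0.28 FPKM in Dhps cko and at 0.15 FPKM and listed at 0 in Dhps flox, with an adjusted p of 0.70. H4c3 was lower in Dhps cko, at 0.10 and 0.05 FPKM against 0.27 and 0.24 FPKM, with an adjusted p of 0.71. By type, the median log2 fold change was -0.17 over 3 H1 genes, -0.05 over 15 H2A genes, 0.20 over 14 H2B genes, -0.02 over 11 H3 genes and 0.42 over 11 H4 genes.

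**Figure D4:**
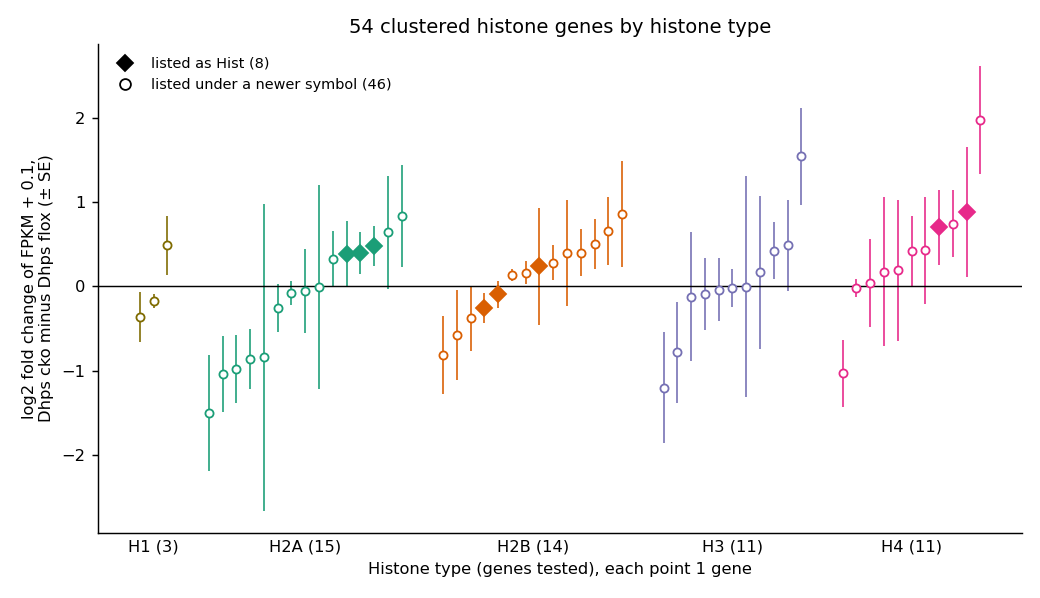
Log2 fold change of FPKM + 0.1, Dhps cko minus Dhps flox (y axis), of the 54 tested clustered histone genes in order of size within each histone type (x axis, number tested in parentheses), with bars for the SE. The 8 filled diamonds are the Hist genes, which lie between -0.26 and 0.89, inside the range of the open circles, from -1.50 for H2ac4 to 1.97 for H4c8.

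The 65 genes were unequal in level. H1f2, a linker histone also called H1.2, held between 47.8% and 56.9% of their summed FPKM. It was at 56.57 and 59.68 FPKM in Dhps cko and at 69.88 and 61.49 FPKM in Dhps flox, a log2 fold change of -0.17 with an SE of 0.08 and an adjusted p of 0.77. Without Dhps flox replicate 1 it was -0.082, and without Dhps flox replicate 2 it was -0.27. After it came the H2B genes H2bc8 and H2bc4. H2bc8 was at 16.96 and 14.53 FPKM in Dhps cko and at 12.60 and 15.62 FPKM in Dhps flox, and its genotypes overlapped. H2bc4 was at 12.39 and 13.08 FPKM in Dhps cko and at 11.82 and 11.31 FPKM in Dhps flox, with an adjusted p of 0.78. The H4 gene H4c9, the H2A gene H2aw and the H2B gene H2bc21 had means of 4.64, 2.88 and 1.42 FPKM, and log2 fold changes of -0.02, -0.08 and 0.28, the last being 0.12 without Dhps flox replicate 1 and 0.44 without Dhps flox replicate 2. With H2ac18, Hist1h2bq and Hist1h2br, these were the 9 clustered histone genes whose mean reached 1 FPKM.

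The annotated transcripts of those 9 run between 109 and 2192 bases past the stop codon. The shortest is that of H2ac18, which reached a mean of 1 FPKM through Dhps flox replicate 2 and was at 1.78, 0.53 and 0.19 FPKM in the other libraries. At least 100 bases past it were annotated in 29 of the 65 genes, among which were all 9, with a median level of 0.43 FPKM over the 29. The other 36 genes had a median of 0.282 FPKM and a highest mean of 0.832 FPKM. Over all 65 the Spearman correlation of level with bases past the stop codon was 0.257, given as a description, since these genes share libraries and reads. Of the 5 genes with a spliced transcript, 3 were at or above 1 FPKM, namely H2bc4, Hist1h2bq and Hist1h2br. Whether the libraries were selected for poly(A) tails is not given in the sources used here, and its part in these levels was not tested.

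**Figure D5:**
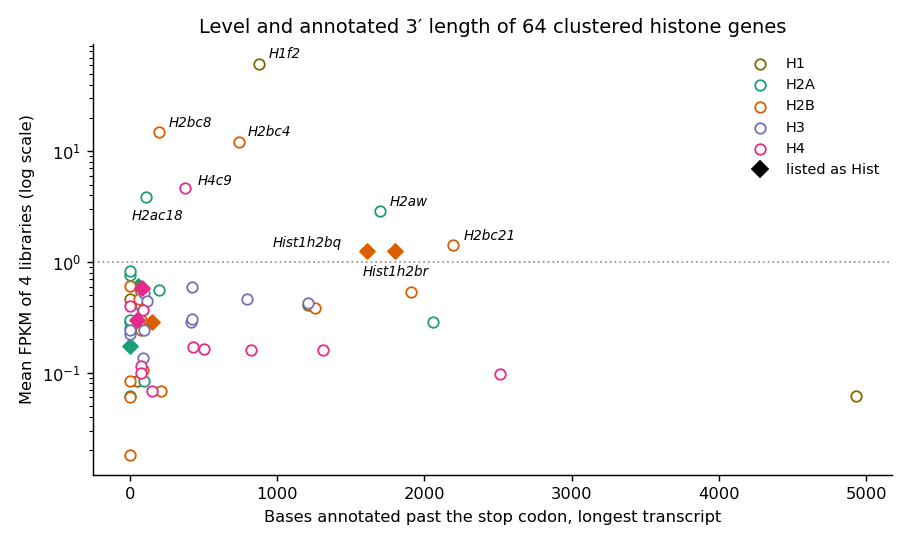
Mean FPKM of the 4 libraries (y axis, log scale) against the bases annotated past the stop codon in the longest transcript (x axis) for the 64 clustered histone genes above 0, coloured by histone type, with filled diamonds for Hist genes and a dotted line at 1 FPKM. The 9 labelled genes above the line all have at least 100 bases past the stop codon, and Hist1h2bq and Hist1h2br, at 1608 and 1803 bases, are the only Hist genes above it.

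The 9 Hist genes were low beside most replacement variants and genes of the dividing cell in the same libraries, while H1f2, with a mean of 61.9 FPKM, lay above all but 5 of the 12 replacement variants and all but 1 of the 28 S phase genes. The 12 replacement variants summed to between 896.6 and 929.6 FPKM, and the 65 clustered genes to between 12.6% and 14.3% of that. Replacement variants have polyadenylated mRNAs, and clustered histone mRNAs usually do not end in a poly(A) tail. Library selection is not given, and its part in these percentages was not tested. H3f3b and H3f3a, which encode H3.3, were at 261.33 to 282.39 and at 145.35 to 170.99 FPKM, and H2afz, which encodes H2A.Z, was at 167.76 to 199.05 FPKM. Of the 12, 1 had an unadjusted p under 0.05 (all genes, 7.0%), H3f3c, an H3.3-like gene. It was at 5.00 and 4.54 FPKM in Dhps cko and at 5.98 and 7.95 FPKM in Dhps flox, a log2 fold change of -0.52 with an SE of 0.16 and an adjusted p of 0.63. It was -0.73 without Dhps flox replicate 1 and -0.32 without Dhps flox replicate 2.

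Genes that act on histone mRNA and on new histones did not pass the test either. Of 24 genes for transcription and 3′ processing of histone mRNA, none had an unadjusted p under 0.05 in either direction, and their median log2 fold change was -0.04. In this list 5 genes were lower in Dhps cko without overlap and 2 higher, against 16.0% and 20.0% of genes tested. The highest were Srrt, which encodes the cap-binding partner ARS2, at 27.83 to 30.88 FPKM, Ncbp1, which encodes a cap-binding subunit, at 23.58 to 24.41 FPKM, and Zcchc6, which encodes a uridylyltransferase of histone mRNA decay, at 22.89 to 24.42 FPKM. Of 23 histone chaperone genes, none had an unadjusted p under 0.05, 6 were lower without overlap and 2 higher, and the median was -0.05. The highest were Hjurp, the chaperone of CENP-A, at 63.30 to 70.64 FPKM, Asf1b, a chaperone of H3 and H4, at 36.81 to 39.70 FPKM, and Nap1l4, of the family of H2A and H2B chaperones, at 36.55 to 37.82 FPKM.

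Cell cycle genes were well expressed, and their summed levels overlapped between genotypes. The 28 S phase genes summed to 399.9 and 353.4 FPKM in Dhps cko and to 369.3 and 392.3 FPKM in Dhps flox, with a median log2 fold change of -0.01, which ran from -0.12 without Dhps cko replicate 1 to 0.077 without Dhps cko replicate 2. Among them Rrm2, a subunit of ribonucleotide reductase, was at 58.94 to 65.22 FPKM, Pcna, the sliding clamp of DNA polymerase, at 44.34 to 52.88 FPKM, and Mcm5, of the replicative helicase, at 25.06 to 31.77 FPKM. The 18 genes of G2 and mitosis summed to 642.7 and 596.2 FPKM in Dhps cko and to 630.2 and 655.0 FPKM in Dhps flox, with a median of -0.05, which was -0.087 without Dhps cko replicate 1 and -0.001 without Dhps cko replicate 2. Mki67, the gene of the proliferation marker Ki-67, was at 102.83 and 89.96 FPKM in Dhps cko and at 107.23 and 108.39 FPKM in Dhps flox, with an adjusted p of 0.77. Top2a, topoisomerase II alpha, was at 58.38 and 57.77 FPKM in Dhps cko and at 63.03 and 61.64 FPKM in Dhps flox, with an adjusted p of 0.77, and Ccnb2, cyclin B2, at 56.86 to 60.78 FPKM. In the G2 and mitosis list 5 of 18 genes were lower in Dhps cko without overlap and 0 higher, against 16.0% and 20.0% of genes tested, and in the S phase list 1 of 28 was lower and 2 higher. None of the genes in either list had an unadjusted p under 0.05.

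Several measurements of the libraries stand beside these comparisons. Dhps itself was at 2.38 and 2.59 FPKM in Dhps cko and at 3.57 and 3.11 FPKM in Dhps flox, a log2 fold change of -0.41 with an SE of 0.13 and an adjusted p of 0.63, counted over the whole gene and not over its floxed part. All 12 neutrophil markers were present, the lowest at a mean of 171.9 FPKM, and they summed to between 73002 and 79945 FPKM. The 5 markers of early neutrophil stages summed to 81.2 and 54.5 FPKM in Dhps cko and to 46.3 and 56.5 FPKM in Dhps flox. The log2 fold change was above 0 in all 5, with a median of 0.55, and none had an unadjusted p under 0.05. Of the 12 neutrophil markers, 10 had a log2 fold change above 0, against 52.2% of genes tested, and 1 had an unadjusted p under 0.05, Ly6g, which encodes a marker used in the sort. It was at 222.16 and 241.58 FPKM in Dhps cko and at 194.95 and 184.80 FPKM in Dhps flox, a log2 fold change of 0.29 with an adjusted p of 0.53. Among markers of other cells an unadjusted p under 0.05, with higher values in Dhps cko, was found in 4 of 6 tested B cell markers, 3 of 8 T cell markers and 6 of 10 markers of monocytes and macrophages, against 4.72% of all genes. No marker in any of these lists passed the adjusted threshold. Their sums were 62.9 and 65.5 against 40.4 and 49.5 FPKM for the 8 B cell markers, 18.5 and 14.5 against 11.1 and 7.8 FPKM for T cells, and 394.0 and 387.7 against 322.0 and 321.5 FPKM for monocytes and macrophages. The 12 erythroid markers summed to 750.6 and 896.6 FPKM in Dhps cko and to 623.4 and 931.7 FPKM in Dhps flox. Their log2 fold change was above 0 in all 12, against 52.2% of genes tested. Of the 12, 2 were higher in Dhps cko without overlap, against 20.0% of genes tested. The 5 platelet markers summed to at most 4.4 FPKM. No marker of these lists was at 0 in all libraries. The part of these cells in the histone levels was not tested.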

How the data were processed

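Per the labels and the methods, total RNA of sorted splenic PMN-MDSCs was sequenced, and the authors filtered reads with Cutadapt 1.9, aligned them to mm10 with HISAT2 2.2.1 and computed FPKM per gene with StringTie 2.1.6 and ballgown. The deposited FPKM have 2 decimals. Library selection, strand and the handling of multiply aligned reads are not given in the sources used here. FPKM are relative to length and mapped fragments. No scaling between libraries is stated.

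Here log2(FPKM + 0.1) was fitted for 17953 genes whose mean reached 0.1 FPKM, with limma 3.58.1 in R 4.3.3 (lmFit, eBayes with trend), with Benjamini-Hochberg adjustment and a threshold of 0.05. Fold changes are on this scale, which understates those of low genes. The fit was tested on simulated data. Groups came from the genotype labels. Named are all tested Hist genes, other clustered histones whose mean reached 1 FPKM or with an unadjusted p under 0.05, and from each list of related genes the 3 highest and any with an unadjusted p under 0.05. Members and lists were chosen with earlier results of these data known. Gene models are GENCODE M21 (GRCm38), which holds 28511 of the identifiers and not 74, and promoters are RefSeq, matched by identifier. Alternatives were other pseudocounts, filters, scalings, a fit with no trend, a replicate block and leaving out each library.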

Additional observations from a re-analysis of the deposited data

How the results depend on the processing

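No histone gene, among the 8 or the 54, passed the adjusted threshold under any alternative run, and neither did any named gene of the related lists. The number of genes past it (1) was 0 with a pseudocount of 0.01, with a filter on values above 0 in 1 library, with the replicate block and without each library in turn (0 to 0), 2 with TPM or quantile scaling, and 4 with a filter at a mean of 1 FPKM. Same-numbered libraries did not deviate together (correlation of -0.06), so the numbers were not taken to pair them. With the replicate block 1 of the 8 histone genes (Hist1h4n) and 6 of the 54 had an unadjusted p under 0.05. With no mean-variance trend these counts were 2 (Hist1h2ao and Hist1h2ap) and 5, and with the mirrored copies summed 1 of 5. The share of all genes at that threshold is given for the main fit only, so these counts have no background of their own. The filter at 1 FPKM left Hist1h2bq and Hist1h2br alone of the 8, with 0 log2 fold changes above 0, a median of -0.18 and 2 genes without overlap. It left 9 of the 65, with 0 at an unadjusted p under 0.05 and 4 without overlap. With a pseudocount of 0.01 the count of 3 among the 54 was 0. Summing the copies left 3 of 5 without overlap.

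Leaving out 1 library gave 5 to 8 of the 8 and 33 to 43 of the 54 without overlap, which 3 libraries allow more easily, and 2 to 7 of the 54 at an unadjusted p under 0.05, with 7 without Dhps flox replicate 1. The background of 20.0% and 16.0% without overlap holds for all 4 libraries and not for 3. With 1 library left out, the shares of all genes without overlap or at that unadjusted p are not given. These counts therefore have no background of their own, and no excess is read from them. The ratios of sums, Dhps cko over Dhps flox, ran from 1.07 to 4.56 for the 2 H4 genes, from 0.44 to 1.19 for 18 H2A genes and from 0.82 to 1.699 for 11 H3 genes. In the 5 related lists the count at an unadjusted p under 0.05 (1) was 2 with the filter above 0, 3 with TPM or size factors, 5 with quantiles and 0 with no trend. The share of all genes in those fits is not given. The sign of the log2 fold change turned for Pcna with TPM (-0.032), size factors (-0.012) and quantiles (-0.035), and for Nap1l4 with TPM (-0.003) and quantiles (-0.006). Without 1 library it turned within these ranges: Hist1h2bp -0.58 to 1.06, H2ac18 -3.60 to 1.91, H2aw -0.20 to 0.05, H4c9 -0.10 to 0.06, H3f3a -0.009 to 0.20, H3f3b -0.083 to 0.029, Srrt -0.097 to 0.053, Ncbp1 -0.04 to 0.004, Asf1b -0.10 to 0.003, Hjurp -0.094 to 0.064, Pcna -0.13 to 0.13, Mcm5 -0.17 to 0.17 and Rrm2 -0.13 to 0.021. The causes were not tested. Without 1 library the median log2 fold change ran from 0.09 to 0.55 over the 8 genes, from -0.06 to 0.12 over the 54, from -0.12 to 0.077 over the S phase genes from -0.086 to 0.01 over the chaperones, from -0.087 to -0.001 over the G2 and mitosis genes and from -0.053 to -0.012 over the 3′ processing genes. With a pseudocount of 1 it was 0.12 over the 8 and 0.048 over the 54, with 0.01 it was 0.51 and 0.15, and with quantiles 0.36 and 0.062. The 5 tested Hist genes with 1 annotated transcript had about 1.5 to 17.4 fragments per library, and no test of depth was run.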
